A study of Mus musculus with 6 samples.

Results

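The genes of translation initiation factors were followed in B16 cells, a mouse melanoma line, through steady and cyclic hypoxia. Members were all genes whose symbol begins with Eif and that were named alone by a probe set, including the kinases of eIF2 and the proteins that bind eIF4E, without Eif2s3y. They numbered 41 of the 7746 genes whose mean signal passed a filter on dim probe sets, and all 41 passed it (their lowest mean signal was 36.9 units). They were measured by 102 of the 22690 probe sets, 91 of which passed. Each gene is given by its brightest probe set unless another is mentioned. Eif1, Eif1ad, Eif2s1, Eif2b3, Eif4g1, Eif4ebp3, Eif5a2 and 5 probe sets that name an Eif gene together with another gene were not analysed here.

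There were 6 Affymetrix arrays, 1 per group, all from cells moved to serum-free medium 2 h before the exposure. The groups were normoxia for 3 h, chronic hypoxia (3 h at under 1% oxygen) and cyclic hypoxia (3 periods of 1 h, with 30 min of reoxygenation in between), and each was collected either at once or after a further hour. For both hypoxic regimes the added hour was reoxygenation. Whether the normoxia arrays were timed to the cyclic regime, which lasts longer in all, is not in the labels, and they name no genetic change in the cells. Each hypoxic array was compared with the normoxia array of its own collection, so the chronic and the cyclic array of 1 collection share their control. Cell number and RNA per cell cannot be told apart in such bulk samples.

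The cells carried the lineage they are labelled with. Of 7 melanocyte lineage genes 6 were named, and their summed signal was 17658 to 23299 units per array. The sum is carried by the brightest genes. Mitf, the lineage's transcription factor, had 2366 units in normoxia, 2820 after chronic and 1256 after cyclic hypoxia, and 2568, 2225 and 635 units 1 h later. It was thus low in both cyclic arrays, at -0.91 and -2.02 on the log2 scale, the second of these in the array that holds the lowest values of several members. Its part in those values was not tested. The summed signals were 12.6 to 25.7 units for 4 fibroblast genes, 41.2 to 60.1 for 4 immune genes, 2.12 to 7.05 for 2 endothelial genes and 8.48 to 19.7 for 2 keratinocyte genes. Among these, Lyz2 (3.46 to 14.1 units) gave -1.09, -1.19, 1.81 and 1.70 for chronic, cyclic, and each with reoxygenation, and Krt5 (6.84 to 14.0 units) gave 1.03 after chronic hypoxia, both at dim probe sets. The array after cyclic hypoxia and reoxygenation stood apart from the others, with a mean correlation of 0.940 across genes against 0.962 to 0.967 for the other arrays. Genes are not independent replicates, so this describes the array only. Results that rest on it are marked as such.

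Protein synthesis starts when eIF2, bound to GTP, brings the initiator tRNA to the small ribosomal subunit, which is held by eIF3 and guided by eIF1, eIF1A and eIF5. The eIF4F complex (the cap-binding protein eIF4E, the helicase eIF4A and the scaffold eIF4G) brings the subunit to the capped mRNA, and eIF5B joins the large subunit. Low oxygen is known to slow this process at both ends: eIF2 kinases phosphorylate eIF2 and so block its recycling by eIF2B, and 4E-binding proteins sequester eIF4E when mTORC1 is inactive. Arrays measure mRNA and carry no information on these phosphorylations.

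Differences between 2 arrays are given as log2 differences of the signal, without a test, since no group has a replicate. A difference of 1 on this scale is 2-fold. At the end of the exposure most initiation factor genes had a higher signal in hypoxia, but by small amounts. After chronic hypoxia 31 of 41 members (75.6%) were above normoxia, with a median difference of 0.21, against 50.5% of all genes and a median of 0.00. After cyclic hypoxia 28 members (68.3%) were above normoxia, with a median of 0.15, against 47.1% and -0.03. With the mean of all probe sets of a gene the member median was 0.05 after cyclic hypoxia and 0.18 after chronic hypoxia. The normoxia arrays differed in the same way: in the later one 31 of 41 members were also higher than in the first, by a median of 0.12, and the first normoxia array held the lowest of the 6 signals for 14 of 41 members, against 15.3% of all genes. That array is the control of both comparisons at the end of the exposure. One hour later the median differences from the second normoxia array were 0.01 after chronic and 0.05 after cyclic hypoxia, with 22 of 41 members higher in each.

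Few members moved as far as 2-fold. After chronic hypoxia 0 members were 2-fold higher and 0 lower, where 2.53% and 2.36% of all genes were. After cyclic hypoxia 1 member, Eif2ak3, was 2-fold higher (2.12% of all genes) and 0 were lower (5.44%). With the added hour, 0 members were 2-fold higher or lower after chronic hypoxia, where 2.98% and 1.12% of all genes were. After cyclic hypoxia and reoxygenation 0 were 2-fold higher (3.56%) and 3 of 41, or 7.32%, were 2-fold lower, against 10.6% of all genes. These 3 were Eif5, Eif2ak2 and Eif2ak4, and their share did not exceed the background. That background includes genes dimmer than any member. Standard deviations of the differences over all genes were 0.50, 0.57, 0.47 and 0.71 (chronic, cyclic, and each with reoxygenation). At genes with a mean of at least 100 units they were 0.37, 0.41, 0.32 and 0.57. For members they were 0.32, 0.31, 0.24 and 0.58. The part of signal level in the counts was not tested.

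**Figure D1:**
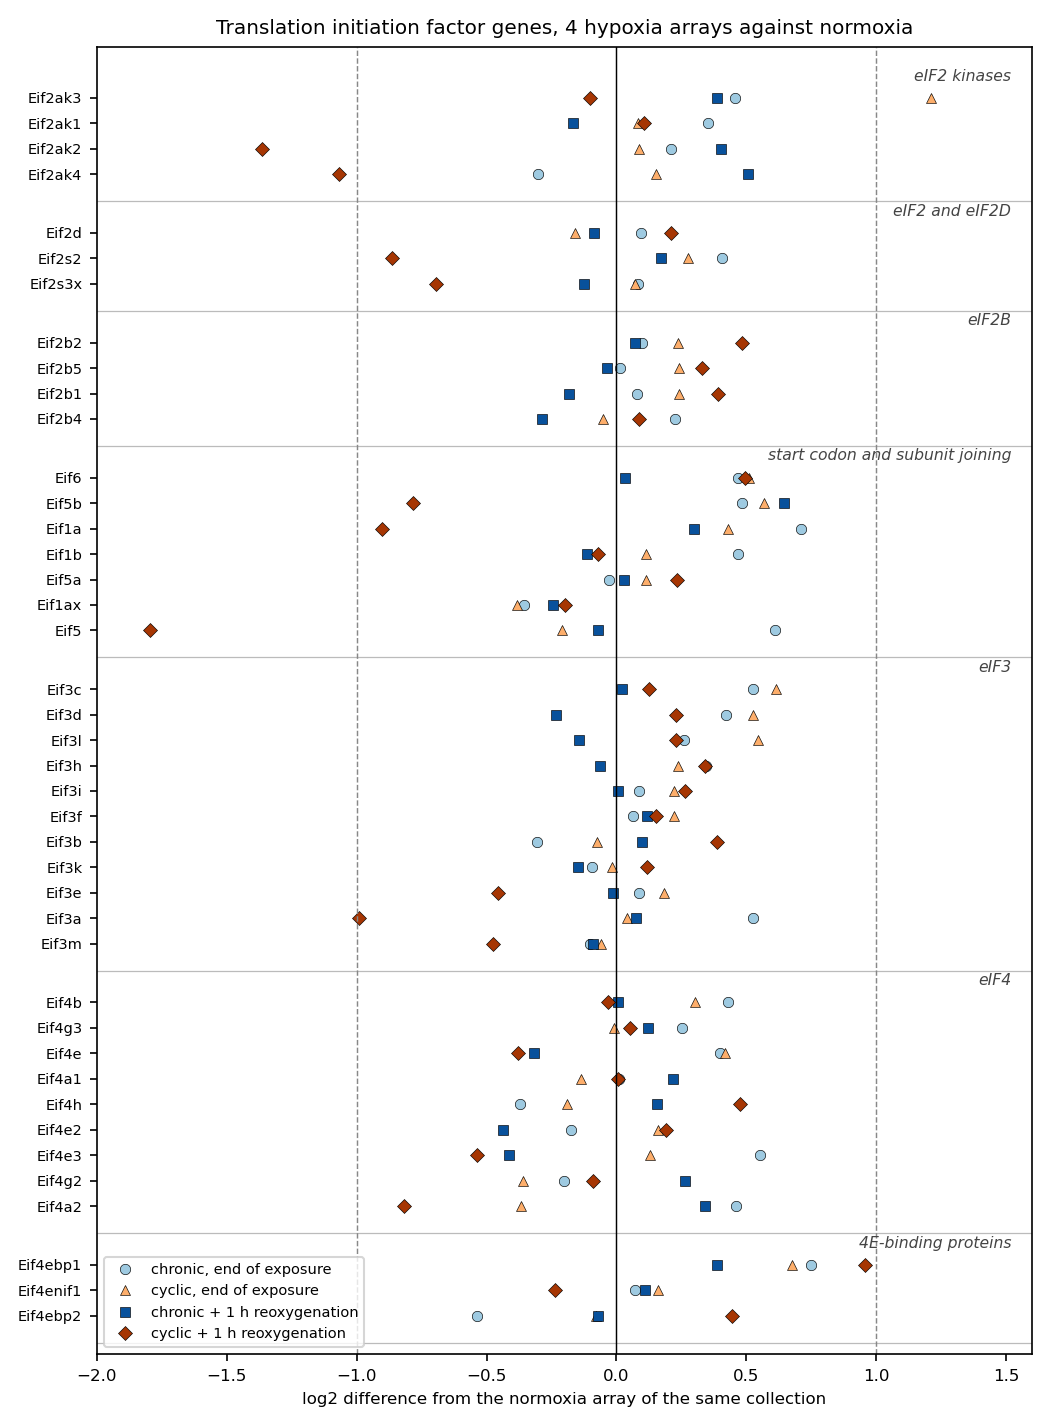
Log2 difference of each of the 41 initiation factor genes (rows, grouped by role) from the normoxia array of the same collection, with 1 symbol for each of the 4 hypoxia arrays and dashed lines at 2-fold. The diamonds of cyclic hypoxia with reoxygenation spread from -1.80 (Eif5) to 0.96 (Eif4ebp1), while those of the other arrays, apart from Eif2ak3 at 1.21, stay within 2-fold.

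The additive fit in limma averages the differences of both collections, with the collections standing in for replicates. A large difference at 1 collection can therefore give a small p without holding at the other. Eif5, for example, gave -0.21 and -1.80 for cyclic hypoxia at the collections and is counted below. With p adjusted over 13556 probe sets it called 0 of the 91 member probe sets for chronic hypoxia, cyclic hypoxia, their mean, or cyclic against chronic hypoxia. It called 0.0959%, 0.0%, 0.0148% and 0.0% of all probe sets. At an unadjusted p under 0.05 there were 1 of 41 members for chronic hypoxia (2.44%, against 5.35% of all probe sets) and 6 for cyclic hypoxia (14.6% against 14.9%), 4 of them higher and 2 lower. There were 3 for mean hypoxia (7.32% against 8.90%) and 5 for cyclic against chronic hypoxia (12.2% against 14.5%). By their brightest probe sets the members therefore did not exceed these shares. The shares differ in unit, since all probe sets count some genes more than once. Further probe sets of members are not in the counts out of 41, so they do not settle how the whole group compares. What follows describes single members.

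Among the 4 eIF2 kinases, which each sense a different stress, only PERK passed 2-fold at the end of the exposure by its brightest probe set. Eif2ak3, which encodes PERK, the kinase of the endoplasmic reticulum, had a signal of 100.1 units in normoxia, 137 after chronic and 232 after cyclic hypoxia, and of 109.9, 144 and 102 in the same order 1 h later. The array after cyclic hypoxia was thus the highest of the 6, 2.32-fold above its control (log2 difference 1.21), and both chronic arrays lay moderately above theirs, by 0.46 and 0.39. After the hour of reoxygenation the cyclic array was back near normoxia, at -0.10, a log2 difference of -1.18 over that hour. The other probe sets of Eif2ak3 were too dim to pass the filter, so this pattern has no second measurement.

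The other kinases were dimmer. Eif2ak2 (PKR, which binds double-stranded RNA) stood at 37.1 units in normoxia, 42.9 after chronic and 39.5 after cyclic hypoxia, and at 37.6, 49.7 and 14.6 units 1 h later. The last of these, from the array that stood apart, was 2.57-fold below its control (-1.36), and a second probe set, much dimmer, gave -0.86 there and 1.08 at the end of cyclic hypoxia. Eif2ak4 (GCN2, which senses uncharged tRNA) stood at 34.8, 28.2 and 38.7 units at the end of the exposure and at 44.5, 63.2 and 21.3 units 1 h later, with a difference of -1.07 in the last array and 0.51 in the chronic array of that hour. The 1 probe set of Eif2ak4 left no second measurement. Over the last hour of the chronic regime Eif2ak4 was the member furthest above its starting level, at 1.16, where 2.22% of all genes were 2-fold higher. Eif2ak1 (HRI, the heme-regulated kinase) stayed between 66.3 and 84.6 units, with differences from normoxia of -0.17 to 0.35.

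The measured subunits of eIF2 and of its exchange factor did not move together, and Eif2s1, the gene of the alpha subunit, was not analysed. Eif2s2, the beta subunit of eIF2, had 807 units in normoxia, 1069 after chronic and 978 after cyclic hypoxia, and 877, 989 and 482 units 1 h later. The array after cyclic hypoxia and reoxygenation lay below the range of the others, at -0.86 against its control. Eif2s3x, the gamma subunit, was also lowest there, at -0.69, and lay between -0.12 and 0.08 in the other 3 hypoxia arrays. The 6 probe sets of Eif2s2 that passed the filter all lay below normoxia in that array (-0.36 to -2.32). The dimmest of them, however, was low after cyclic hypoxia at both collections, at 5.95 and 5.15 units against 25.7 to 43.2 in the other arrays, which the brightest probe sets did not show.

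The 4 measured subunits of eIF2B, the exchange factor that reloads eIF2 with GTP, lay on the other side in the same array. All 4 were above normoxia after cyclic hypoxia and reoxygenation, by 0.48 for Eif2b2, 0.39 for Eif2b1, 0.33 for Eif2b5 and 0.09 for Eif2b4. After chronic hypoxia and reoxygenation they lay between -0.29 and 0.07. Eif2d, which can deliver tRNA to the ribosome without GTP, stayed within 319 to 393 units, with differences of -0.16 to 0.21.

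Eif5 showed the largest difference of any member. It encodes the protein that triggers GTP hydrolysis by eIF2 when the start codon is found. Its signal was 583 units in normoxia, 891 after chronic and 504 after cyclic hypoxia, and 716, 683 and 206 units 1 h later. The array after cyclic hypoxia and reoxygenation was the lowest by far, 3.47-fold below its control (-1.80), while the chronic array of that hour matched normoxia at -0.07. All 4 probe sets of Eif5 gave the same picture there, with -1.60, -1.62 and -1.68 at the other 3. Over the last hour the log2 difference was -1.29 in the cyclic regime and -0.38 in the chronic one. At the end of chronic hypoxia the brightest probe set was 0.61 above normoxia, but the other 3 gave -0.21 to 0.04, so that difference depends on the probe set.

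The fit of both collections gave Eif5 a difference of -1.004 for cyclic hypoxia against normoxia (SE 0.323, limma adjusted p = 0.220) and of -1.27 for cyclic against chronic hypoxia (SE 0.323, limma adjusted p = 0.209). The first value was -0.38 without the array after cyclic hypoxia and reoxygenation, and -1.63 without the array after cyclic hypoxia. The contrast with normoxia therefore rests on 1 array.

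To let these genes be set beside their upstream sequence, the 250 bases before the annotated start are given for the lowest gene, Eif5, for Eif3a, the lowest eIF3 subunit after cyclic hypoxia and reoxygenation, and for Eif2ak3, the highest gene after cyclic hypoxia. They come from RefSeq on GRCm38.p6 and are written 5′ to 3′ on the strand of the gene, which is plus at chr12:111537851-111538100, minus at chr19:60790694-60790943 and plus at chr6:70844265-70844514. Capitals mark ACGTG on either strand, the core of the element bound by HIF, the hypoxia-inducible transcription factor.
Eif5: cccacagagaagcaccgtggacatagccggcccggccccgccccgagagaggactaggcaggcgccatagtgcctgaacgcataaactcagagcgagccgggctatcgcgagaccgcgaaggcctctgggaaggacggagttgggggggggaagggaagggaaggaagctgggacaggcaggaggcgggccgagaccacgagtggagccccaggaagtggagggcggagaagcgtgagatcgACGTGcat
Eif3a: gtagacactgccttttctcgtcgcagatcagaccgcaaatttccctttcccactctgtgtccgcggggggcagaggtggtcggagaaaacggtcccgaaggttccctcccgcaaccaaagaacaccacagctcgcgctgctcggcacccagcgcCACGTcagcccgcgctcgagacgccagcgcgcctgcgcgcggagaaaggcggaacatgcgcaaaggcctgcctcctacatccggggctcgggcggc
Eif2ak3: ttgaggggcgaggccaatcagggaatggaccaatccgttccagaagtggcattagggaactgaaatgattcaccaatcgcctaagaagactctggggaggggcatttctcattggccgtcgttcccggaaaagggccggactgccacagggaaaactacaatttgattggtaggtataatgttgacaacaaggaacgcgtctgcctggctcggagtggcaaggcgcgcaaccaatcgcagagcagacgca
Eif5 held the motif at -8, counted from the annotated start, Eif3a held it on the opposite strand with its first base at -96, and Eif2ak3 did not hold these letters in this window.

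Over all members, 33 of 41 genes were matched to 46 such windows, and 17 of these (37.0%) held ACGTG, against 16.7% of the 32536 windows of all genes. Some windows of 1 gene overlap, as at Eif4g3 and Eif5a, so a site can be counted more than once. By gene, 14 of the 33 held it. In some, such as Eif4e and Eif4h, the letters lay within CACGTG, which reads the same on both strands. Of the 10 members at least 0.5 below normoxia after cyclic hypoxia and reoxygenation, 8 were matched and 4 held ACGTG (Eif2s2, Eif3a, Eif5 and Eif5b), against 10 of the 25 other matched members. The core of the C/EBP-ATF response element, TGATGNAA, was in 1 member window (Eif2s3x), or 2.17%, against 3.40% of all windows. The ER stress response element (ERSE) was in 0 member windows and in 37 windows of all genes (0.114%). Both strands were searched for each motif. A match of letters does not show that a factor binds.

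The remaining factors of start codon selection and subunit joining divided in the same array. Eif5b, the GTPase that joins the ribosomal subunits, had 47.6 units in normoxia, 66.6 after chronic and 70.5 after cyclic hypoxia, and 50.9, 79.7 and 29.6 units 1 h later. It was above normoxia in 3 hypoxia arrays, by 0.48 to 0.65, and below it in the last, by -0.78, where its dimmer probe sets gave -0.19 and -0.07. Eif1a, which helps the small subunit to scan, was likewise above normoxia in 3 hypoxia arrays and lowest in the last, with 252, 413 and 339 units and then 307, 378 and 164 units, or -0.90 in the last array. Its paralogue Eif1ax lay below normoxia in all 4 arrays, by -0.20 to -0.38, and Eif1b between -0.11 and 0.47. A dimmer probe set of Eif1ax gave -0.15 to -0.68 in 3 hypoxia arrays and -0.90 in the last, near the value of Eif1a there. Transcripts this alike may share probes, so values of Eif1a and Eif1ax cannot be assigned with certainty.

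Eif6 and Eif5a were not lower in that array. Eif6, which keeps the large subunit from joining too early, stood at 438 units in normoxia, 607 after chronic and 624 after cyclic hypoxia, and at 514, 525 and 724 units 1 h later. Its differences from normoxia were 0.47 after chronic hypoxia, 0.51 after cyclic hypoxia and 0.49 after cyclic hypoxia with reoxygenation. In the chronic array of that last hour the difference was 0.03. Its fitted difference for cyclic hypoxia was 0.50 (SE 0.180, limma adjusted p = 0.261). Eif5a, which acts in elongation, ranged from 2677 to 3524 units and differed by -0.03 to 0.23.

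The 11 measured subunits of eIF3, the large scaffold around the small ribosomal subunit, formed no single pattern. At the end of the exposure 8 of 11 were above normoxia in the chronic regime (median 0.09) and 8 in the cyclic one (median 0.22). The highest by the mean of their 4 differences were Eif3c (0.53 and 0.61 at the end of chronic and cyclic hypoxia), Eif3d (0.42 and 0.52) and Eif3l (0.26 and 0.54). One hour later these differences were at most 0.23 in size for Eif3d and Eif3l and 0.13 for Eif3c. Of the 4 probe sets of Eif3c, all were higher after cyclic hypoxia, by 0.37 to 1.13, but the first normoxia array was also 0.22 to 0.53 below the second one at these probe sets.

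After cyclic hypoxia and reoxygenation 8 of 11 eIF3 subunits were above normoxia (median 0.15), and the 3 below it were Eif3a (-0.99), Eif3m (-0.47) and Eif3e (-0.46). Eif3a, the largest subunit, had 436 units in normoxia, 627 after chronic and 448 after cyclic hypoxia, and 493, 520.1 and 248 units 1 h later. The last array was the lowest of the 6, and the other 2 probe sets that passed the filter gave -1.20 and -1.15 there. For cyclic against chronic hypoxia its fitted difference was -0.78 (SE 0.247, limma adjusted p = 0.258). By collection it was -0.48 at the end of the exposure and -1.07 after the added hour, so the fitted value rests in part on the array that stood apart. The other 8 subunits lay between 0.12 and 0.39 above normoxia in that array, with Eif3b highest, so genes of 1 complex lay on both sides of normoxia.

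Eif4ebp1 was above normoxia in every hypoxia array. It encodes 4E-BP1, which sequesters eIF4E when mTORC1 is inactive. Its signal was 724 units in normoxia, 1217 after chronic and 1157 after cyclic hypoxia, and 906, 1183 and 1756 units 1 h later. Every hypoxia array was above both normoxia arrays, by 0.75, 0.68, 0.39 and 0.96 against its own control (chronic, cyclic, and each with reoxygenation). A second probe set gave 1.02, 0.80, 0.38 and 0.89, so 2-fold was passed there once, while another, with 6.65 to 32.3 units, gave 1.46, 0.47, 1.00 and -1.11.

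The fitted difference of Eif4ebp1 was 0.57 for chronic hypoxia (SE 0.175, limma adjusted p = 0.659), 0.82 for cyclic hypoxia (SE 0.175, limma adjusted p = 0.126) and 0.69 for mean hypoxia (SE 0.151, limma adjusted p = 0.279), higher in 4 of 4 hypoxia arrays. Each of the 3 p-values missed the threshold. Without the array after cyclic hypoxia and reoxygenation the cyclic value was 0.59, and without the array after cyclic hypoxia it was 1.05. The other binding proteins were different. Eif4ebp2 had 112, 77.2 and 106 units at the end of the exposure and 103, 97.8 and 139.8 units 1 h later. Its difference was -0.54 in the first chronic array, -0.08 in the first cyclic one and 0.44 in the last cyclic one. In the same order its dimmer probe sets past the filter gave -0.25 to -0.49, -0.41 to -0.61 and -0.18 to 0.84. Its cyclic values thus depend on the probe set. Eif4enif1, which carries eIF4E into the nucleus, stayed between 84.8 and 111 units.

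**Figure D2:**
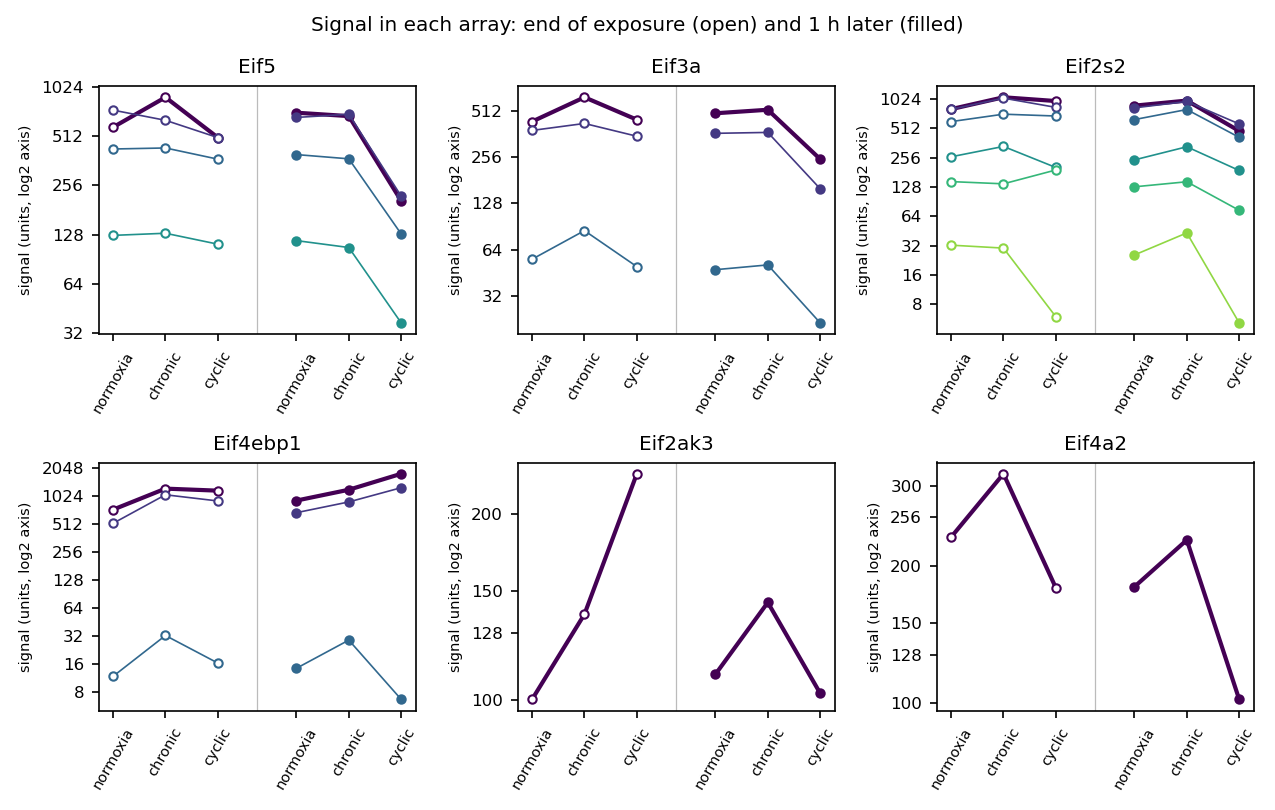
Signal (units, log2 axis) in each of the 6 arrays for 6 genes, at the end of the exposure (open points) and 1 h later (filled points), with 1 line per probe set that passed the filter and a thick line for the brightest. The 4 lines of Eif5 and the 3 of Eif3a are lowest together in the array after cyclic hypoxia and reoxygenation, and the bright lines of Eif4ebp1 reach their highest point there, 1756 units for the brightest.

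Among the genes of the cap-binding complex, Eif4e and the helicase Eif4a2 varied most. Eif4e, the cap-binding protein itself, stood at 531 units in normoxia, 700.3 after chronic and 710.0 after cyclic hypoxia, and at 559, 449 and 429.8 units 1 h later. Both regimes were thus above normoxia at the end (0.40 and 0.42) and below it after reoxygenation (-0.32 and -0.38), and over the last hour Eif4e was lower by -0.64 and -0.72. A second probe set gave 0.25 and -0.01 at the end and -0.04 and -0.78 after it, and a dim further one -0.14, -0.29, 0.42 and -0.64. All 3 probe sets were thus below normoxia after cyclic hypoxia and reoxygenation, while the other differences depend on the probe set.

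Eif4a2 lay on opposite sides of normoxia in the regimes, though the normoxia arrays themselves differed by -0.36 at this gene. Its signal was 231 units in normoxia, 319 after chronic and 179 after cyclic hypoxia, and 180.2, 228 and 102 units 1 h later. Chronic hypoxia was above its control at both collections (0.46 and 0.34) and cyclic hypoxia below (-0.37 and -0.82), with 1 probe set for the gene. The fitted difference between the regimes was -0.99 (SE 0.212, limma adjusted p = 0.204), the smallest adjusted p among the brightest probe sets of members in that contrast. The dimmest probe set of Eif2s2 gave -2.71 (limma adjusted p = 0.127). The value of Eif4a2 was -0.80 without the array after cyclic hypoxia and reoxygenation. Its close relative Eif4a1 showed no such pattern, with 1471 to 1744 units and differences of -0.13 to 0.22.

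The other eIF4 genes moved less. Eif4b, a cofactor of the helicase, was above normoxia at the end of the exposure (0.43 and 0.30) and equal to it 1 h later (0.01 and -0.03). Its partner Eif4h gave -0.37, -0.19, 0.16 and 0.48 at its brightest probe set and 0.40, 0.41, -0.16 and 0.30 at another, so its direction at the end of the exposure depends on the probe set. Eif4g2, an eIF4G relative that does not bind eIF4E, differed by -0.36 to 0.27, though another of its probe sets gave -1.01 in the last cyclic array. Eif4g3 differed by -0.01 to 0.25. Eif4e2, a cap-binding homologue with a known role in translation under hypoxia, gave -0.17 and -0.44 for chronic and 0.16 and 0.19 for cyclic hypoxia. Eif4e3 gave 0.55 and -0.41 for chronic and 0.13 and -0.54 for cyclic hypoxia, but the normoxia arrays differed by 0.61 at this gene, the widest gap of any member. A second probe set gave -0.08 and -0.39 for chronic and -0.71 and -0.38 for cyclic hypoxia, with -0.18 between the normoxia arrays. The direction of Eif4e3 at the end of the exposure thus depends on the probe set.

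The hour of reoxygenation can be read within each regime, from pairs of arrays with no array in common. After chronic hypoxia the median difference of members over that hour was -0.04, with 1 member 2-fold higher and 0 lower, where 2.22% and 1.45% of all genes were. After cyclic hypoxia the median was 0.03, yet 6 of 41 (14.6%) were 2-fold lower, namely Eif2ak2, Eif5, Eif5b, Eif2ak3, Eif1a and Eif2s2, where 7.47% of all genes were. There were 0 members 2-fold higher, where 2.9% of all genes were. Between the normoxia arrays 0 members differed 2-fold in either direction, where 0.865% of all genes were higher and 1.87% lower. The share after cyclic hypoxia was above the background without a test, and it rests on the array that stood apart.

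**Figure D3:**
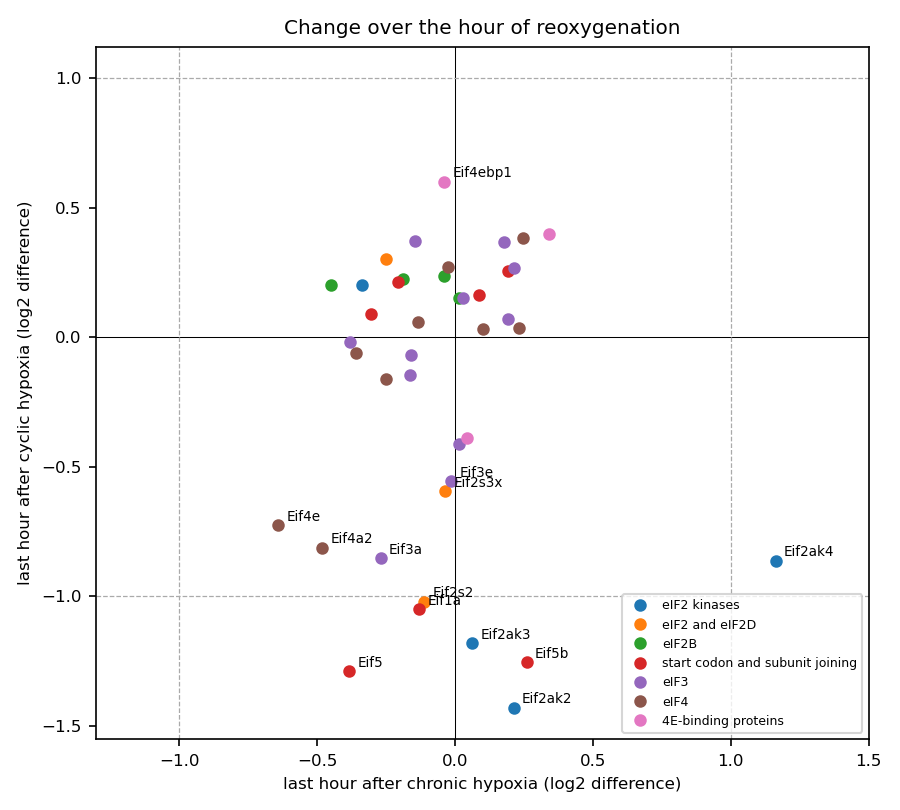
Log2 difference of each of the 41 genes over the hour of reoxygenation, after chronic (horizontal axis) and after cyclic hypoxia (vertical axis), coloured by role, with dashed lines at 2-fold. The 6 genes below the lower dashed line reach -1.43 on the vertical axis but stay between -0.38 and 0.26 on the horizontal one.

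Most of the genes that were low after cyclic hypoxia and reoxygenation had been above normoxia before that hour, as had most members. At least 0.5 below normoxia in that array were 10 members, or 24.4%, against 22.4% of all genes: Eif1a, Eif2ak2, Eif2ak4, Eif2s2, Eif2s3x, Eif3a, Eif4a2, Eif4e3, Eif5 and Eif5b. At the end of cyclic hypoxia 8 of these 10 were above normoxia (median 0.11), the exceptions being Eif4a2 (-0.37) and Eif5 (-0.21). These 8 ranged from 0.04 (Eif3a) to 0.57 (Eif5b). After chronic hypoxia 9 of 10 were above normoxia (median 0.47). Over all 41 members the shares above normoxia were 68.3% (median 0.15) after cyclic and 75.6% (median 0.21) after chronic hypoxia. Against chronic hypoxia with reoxygenation, 8 members were 2-fold lower in that array (19.5%, against 12.6% of all genes) and 0 higher (2.5%). At the end of the exposure cyclic and chronic hypoxia differed 2-fold at 0 members in either direction, where 1.23% of all genes were higher and 3.76% lower. The array after cyclic hypoxia and reoxygenation held the lowest signal for 13 of 41 members and the highest for 15, against 28.6% and 26.2% of all genes.

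**Figure D4:**
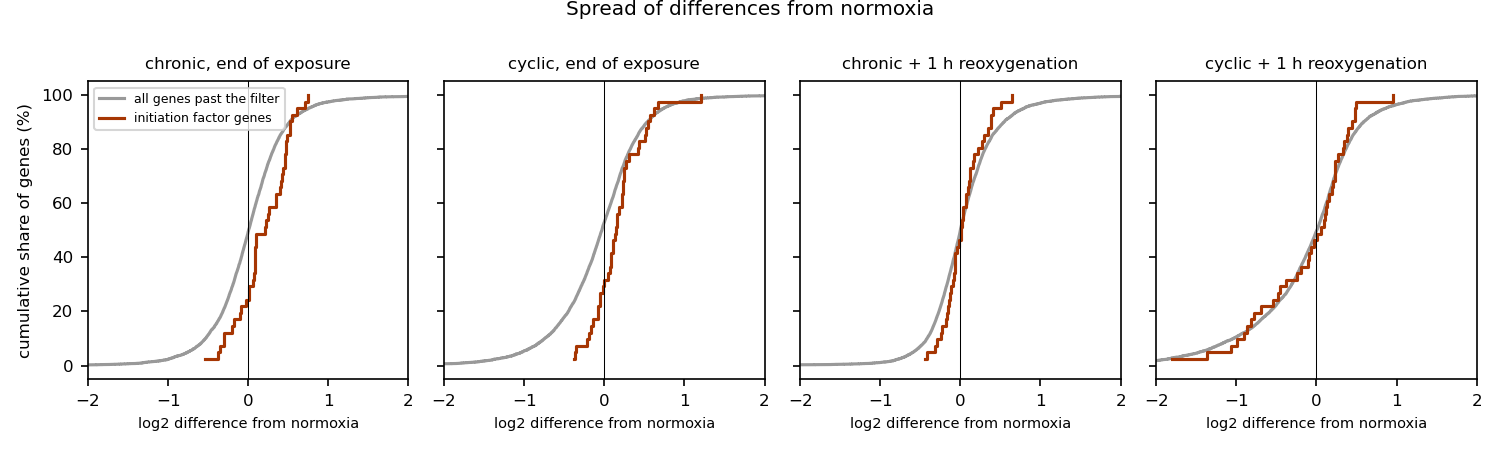
Cumulative share (%) of the 41 initiation factor genes and of all 7746 genes by log2 difference from normoxia, in 1 panel for each hypoxia array. The members lie to the right of all genes at the end of the exposure (medians 0.21 and 0.15, against 0.00 and -0.03) and close to them 1 h later (0.01 and 0.05).

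The low members were of very different lengths. Eif5 and Eif4a2 are among the shorter genes (8.65 and 6.67 kb). The median length in GRCm38.p6 was 26.8 kb for the 10 low members (6.67 to 86.7 kb) and 17.4 kb for the other 31 (2.72 to 215 kb). Across the 41 members the Spearman correlation of gene length with the difference from normoxia was -0.27 after cyclic hypoxia and reoxygenation, against -0.24 over 7739 genes. With the mean signal the correlation was 0.33 for members and 0.02 for all genes. In the other 3 comparisons the correlation with length lay between 0.02 and 0.10 for members. These are descriptions across genes that share 1 pair of arrays. The parts of gene length and signal level in the low signals were not tested.

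How far a value depended on its probe set was seen in the 26 members with more than 1 probe set past the filter, which gave 50 further probe sets. After cyclic hypoxia and reoxygenation 41 of these 50 (82%) had the sign of the brightest one, with a median gap of 0.20. The share was 35 of 50 (70%) after chronic hypoxia at either collection and 28 of 50 (56%) after cyclic hypoxia at the end. Of all 91 member probe sets, 11 were 2-fold lower (12.1%, against 11.8% of all probe sets) and 1 higher (1.10%, against 4.01%) after cyclic hypoxia and reoxygenation.

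Other genes of translation control were taken from lists. Of 26 initiation partners 23 were named, and after cyclic hypoxia and reoxygenation 5 of these were 2-fold lower and 1 higher, with a median of -0.19, where 10.6% of all genes were lower and 3.56% higher. The lower ones were Paip1 (-1.84), a partner of the poly(A)-binding protein, Abce1 (-1.83), which recycles ribosomes, Nck1 (-1.68), an adaptor that binds eIF2, Ncbp2 (-1.08), a part of the nuclear cap-binding complex, and the helicase Ddx3x (-1.02). The higher one was Ppp1r15a, the phosphatase subunit that reverses eIF2 phosphorylation, which was above normoxia in all 4 arrays, by 1.63, 0.95, 1.55 and 1.45 in the order of chronic, cyclic, and each with reoxygenation. Chronic hypoxia gave 1 gene of this list 2-fold higher at each collection and 0 lower, against 2.53% and 2.98% of all genes higher.

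Of 12 genes of mTORC1 and its regulators 9 were measured. At the end of chronic hypoxia 2 were 2-fold higher, Ddit4 (1.23) and Deptor (1.17), both inhibitors of mTORC1, and 1 gene, Mlst8, was lower (-1.25) at a dim probe set of 7.95 to 19.8 units, where 2.53% of all genes were higher and 2.36% lower. After cyclic hypoxia 0 of 9 were 2-fold apart from normoxia. With reoxygenation Ddit4 reached 2.38 after chronic hypoxia and 0.18 after cyclic hypoxia, and Sesn2, a leucine sensor that restrains mTORC1, stood at 1.28 and 1.57. Between the normoxia arrays Deptor differed by 0.72 and Sesn2 by -1.11. Of 10 measured elongation and termination factors 0 were 2-fold apart from normoxia in any of the 4 arrays, and their medians lay between -0.12 and 0.12.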

How the data were processed

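The authors deposited signals, intensities on a linear scale in arbitrary units, for 22690 probe sets in 6 arrays; the submitters' processing notes name GCOS, with version and algorithm not given in the sources used here. The trimmed mean of every array, leaving out 2% at each end, was 100.1, so the deposited scaling was kept. Here values under the 20th percentile (2.10 units) were raised to it, log2 was taken, and 13556 probe sets were kept, those whose signal averaged at least 8.33 units (the 40th percentile), without 64 control probe sets. Of all probe sets 20393 named 1 gene, 691 several and 1606 none, and 20364 were given current symbols by Entrez identifier.

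The additive fit (regime and collection, 2 residual degrees of freedom) used limma 3.58.1 in R 4.3.3, two-sided, with eBayes(trend = TRUE) and p-values adjusted by Benjamini-Hochberg (threshold 0.05). It was tried on simulated data with the same effect in all 4 hypoxia arrays and equal noise in every array, for mean hypoxia only. Such data cannot show how the fit behaves where an array stands apart or the collections differ. With 1 array per group, array number limits the precision, and the labels name no separate cultures that would act as replicates. Alternatives were quantile normalization, median centring, a floor at the 10th percentile, other choices of probe set, no filter, no trend, and leaving out each array.

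The text names every member 2-fold apart from normoxia in any hypoxia array and every member called in the fit. It also names the members of each role group, except for eIF3, where only some subunits are named. Genes of the other lists were named where they passed the filter and were 2-fold apart from normoxia in any hypoxia array. Members and lists were chosen with earlier results of these data known. The split at 0.5 log2, gene length and the array holding each gene's lowest or highest signal were looked at after the values were seen.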

Additional observations from a re-analysis of the deposited data

Results flagged for a closer look

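Members were looked at again where both chronic arrays lay on one side of normoxia and both cyclic arrays on the other. There were 2. Eif4a2 was above normoxia after chronic hypoxia at both collections (0.46 and 0.34) and below it after cyclic hypoxia (-0.37 and -0.82). The fitted difference of cyclic from chronic hypoxia was -0.99 (limma adjusted p = 0.204), so the test of that difference did not pass. Eif4e2 was below normoxia after chronic hypoxia (-0.17 and -0.44) and above it after cyclic hypoxia (0.16 and 0.19), with a fitted difference of 0.48 (limma adjusted p = 0.316), which did not pass either. The regimes share their normoxia array at each collection, and the later normoxia array differed from the first by -0.36 at Eif4a2 and 0.24 at Eif4e2. At Eif4e2 a second bright probe set gave -0.27 and -0.56 for chronic and -0.01 and 0.43 for cyclic hypoxia, and 2 dim ones gave -1.37 and 0.72 at the end of cyclic hypoxia.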

How the results depend on the processing

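Counts of members 2-fold apart from normoxia moved by at most 1 gene under the alternatives tried. With quantile normalization or median centring Eif2ak4 was no longer 2-fold lower after cyclic hypoxia and reoxygenation (2 members, from 3). With the mean of all probe sets Eif3a joined the lower ones there (4 members). With the mean of all probe sets of a gene, or the brightest without a suffix for shared probes, Eif4ebp1 became 2-fold higher after chronic hypoxia (1 member, from 0). With the mean of probe sets Eif2ak3 was no longer 2-fold higher after cyclic hypoxia (0, from 1). With median centring Eif4ebp1 passed 2-fold after cyclic hypoxia and reoxygenation (1, from 0), and the median of members became 0.21 there (from 0.05) and -0.12 after chronic hypoxia and reoxygenation (from 0.01). With quantile normalization these medians were -0.05 and -0.05, so their sign depends on the scaling. The mean of probe sets gave cyclic hypoxia at the end of the exposure a median of 0.05 (from 0.15). Median centring shifts every gene by 0.15 after cyclic and -0.13 after chronic hypoxia with reoxygenation, and by 0.03 and 0.11 for chronic and cyclic hypoxia at the end of the exposure. In the fit, median centring called Eif4ebp1 for cyclic hypoxia (1, from 0). Leaving out 1 array at a time gave 0 to 5 members called for cyclic hypoxia, 0 to 1 for mean hypoxia, 0 to 8 for cyclic against chronic hypoxia and 0 for chronic hypoxia. The 5, 1 and 8 all came without the array after cyclic hypoxia, where the array that stood apart is the lone cyclic one and is assumed to vary like the other groups. Leaving out either normoxia array called 1 member, Eif5, for cyclic against chronic hypoxia. In each of these cases the cause was not tested. Quantile normalization, no filter, no trend and the floor at the 10th percentile left each count within 1.5 times its value. The fit already pairs hypoxia and normoxia arrays by collection, and with 1 array per group there is no replicate number to add as a further block. For dim members such as Eif2ak2 and Eif2ak4 the signal over background limits the precision.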
